A study of Drosophila melanogaster with 8 samples.

Results

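Binding of the Bicoid (Bcd) protein was examined at 5 gene loci of dorsoventral patterning, dpp, sog, brk, sna and rho, in wild-type and zelda mutant Drosophila melanogaster embryos. The members were all Bcd peaks of the deposited lists that overlapped, by at least 1 bp, a fixed window around each gene on the genome build dm3. There were 29 such peaks out of 6541, of which 16 of 3891 were in the wild-type list and 13 of 2650 in the mutant list. The windows were 2L from 2420000 to 2470000 for dpp, X from 15490000 to 15550000 for sog, X from 7180000 to 7215000 for brk, 2L from 15460000 to 15490000 for sna and 3L from 1445000 to 1475000 for rho.

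The peaks came from chromatin immunoprecipitation followed by sequencing (ChIP-seq), in which DNA crosslinked to a protein is recovered with an antibody and sequenced. Embryos were collected 1 to 3 h after egg laying. The wild-type group and the zelda mutant group each had 2 Bcd ChIP samples, for which a rabbit antiserum raised against the Bcd protein was used, and 2 input samples, which had no antibody. The labels name no allele for the mutant and do not say whether the embryos lacked the maternal or the zygotic supply of Zelda. Whether the replicates came from separate collections is not stated, and each genotype was represented by 1 deposited peak list, so no spread between replicates could be measured and no test between the genotypes was made. After removal of duplicate tags the wild-type ChIP held 39154546 tags and the mutant ChIP 10060479, a ratio of 3.89. At a fixed p cutoff a deeper library gives more and longer peaks. For the calls the larger of ChIP and control was scaled towards the smaller, which in wild type was the control with 22487837 tags. The ratio of 3.89 is therefore that of the ChIP libraries and not of the scaled tags behind the calls. The chromatin came from whole embryos, so fewer nuclei with Bcd bound and less Bcd bound per nucleus cannot be told apart.

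Bcd is a homeodomain transcription factor whose level is highest at the anterior pole and declines towards the posterior, and it is known for anteroposterior patterning. The dorsoventral axis is set by a different gradient, that of the transcription factor Dorsal, whose nuclear level is highest on the ventral side. Dorsal activates genes in the presumptive mesoderm and neurogenic ectoderm and represses others, which are then restricted to the dorsal ectoderm. Zelda is a maternally supplied zinc finger protein found throughout the early embryo that opens chromatin and is needed for the timely activation of many early genes, dorsoventral targets among them. The 5 genes cover each of these domains. dpp encodes a bone morphogenetic protein (BMP) ligand of the dorsal ectoderm, sog a secreted BMP antagonist of the neurogenic ectoderm, and brk a transcriptional repressor of Dpp target genes. sna encodes a zinc finger repressor of the mesoderm, and rho a membrane protease that releases ligands of the epidermal growth factor receptor.

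The genes were tied to the peaks by the windows alone, since a dm3 annotation was not used here. In the RefSeq table of Release 6, used only for which genes neighbour each other, rho overlaps the protein-coding gene Ptp61F and brk overlaps CG1677. The nearest protein-coding neighbours of dpp are CG44139 and Slh, those of sog are Chsy and CG8117, and those of sna are CG4161 and Tim17b2. Besides the overlapping genes, those of rho are SA2 and Naa30B, and those of brk are unc-119 and Atg5. A peak in a window may therefore lie at one of these genes.

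Bcd peaks were present in all 5 windows in both genotypes. In wild type there were 4 at sna, 4 at brk, 4 at sog, 2 at dpp and 2 at rho. In the mutant there were 5 at brk, 3 at sna, 2 at dpp, 2 at rho and 1 at sog. The windows held 7.80 wild-type peaks per 100 kb, against 2.35 over the chromosome arms up to the last peak of each arm, and 6.34 mutant peaks per 100 kb, against 1.55. Inside the windows the wild-type peaks covered 18.3% of the sequence and the mutant peaks 8.52%, against 6.25% and 2.55% of the arms. The windows were drawn with results of these data known, so these densities describe the windows and are not support for an enrichment.

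**Figure D1:**
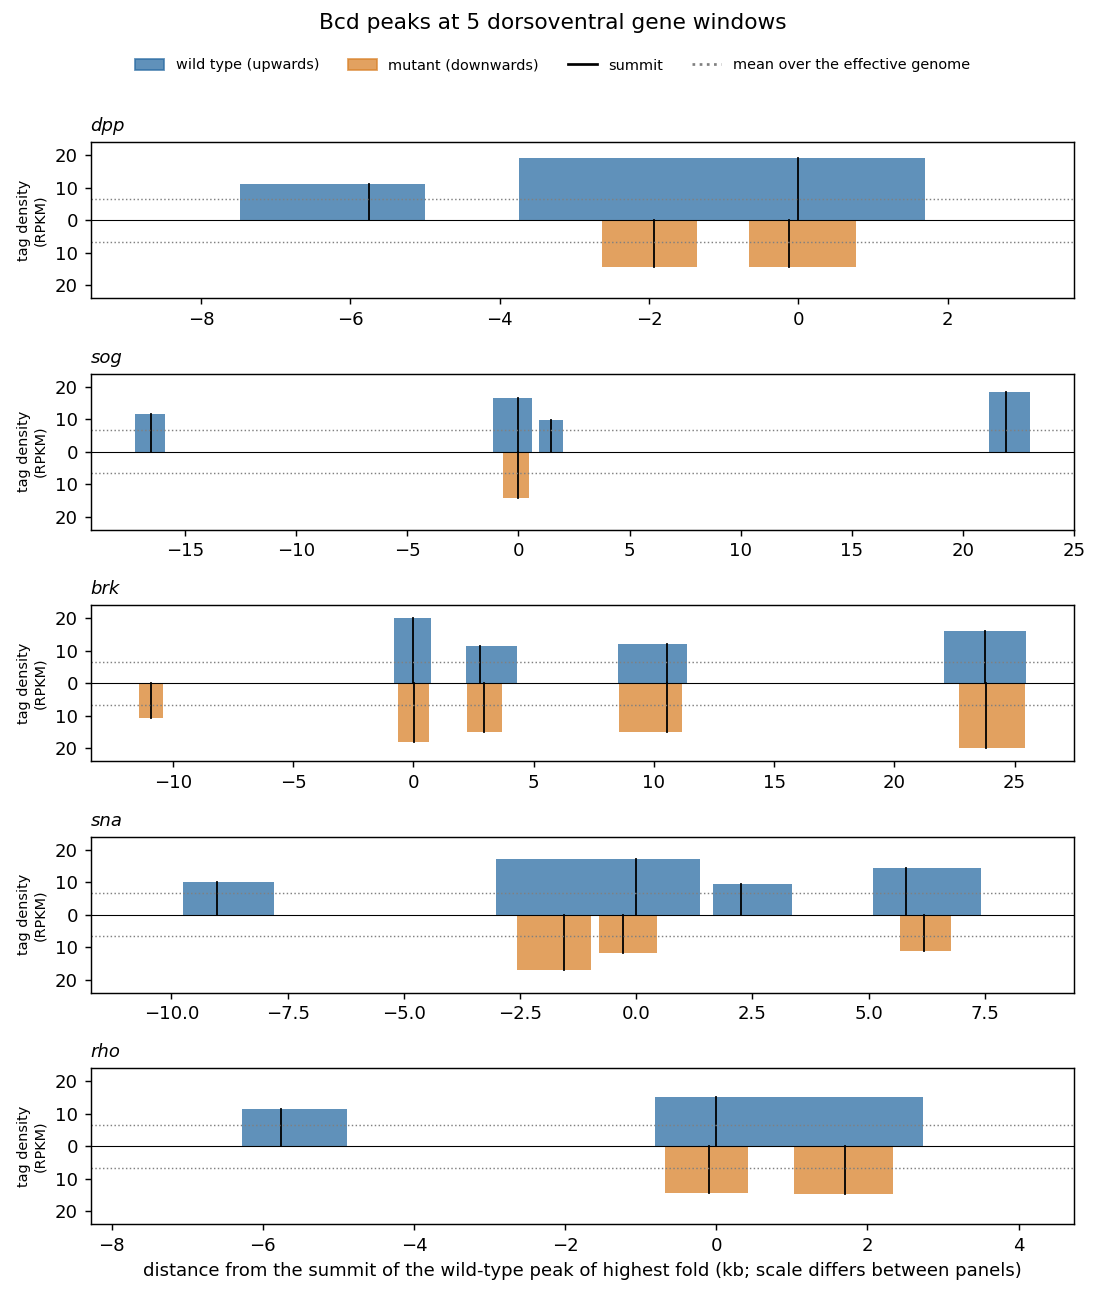
Bcd peaks at the 5 windows, drawn to scale in kb from the summit of the wild-type peak with the highest fold at each locus. Bar width is the called length and bar height the tag density of the peak (RPKM), upwards for wild type and downwards for the mutant, with summits as black lines and the mean density over the effective genome (6.58) dotted. Single wide wild-type bars stand opposite 2 mutant bars at dpp, sna and rho, while the 4 wild-type bars at brk each stand opposite 1.

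The number of tags in a peak was divided by its length and by the tags of its ChIP to give a tag density in RPKM (tags per kb of peak and per 1000000 ChIP tags). On this scale the mean over the effective genome was 6.58 by definition in both lists, and the background under a peak is part of its density. Poisson 95% intervals are given for tag numbers. They cover counting error only and no spread between replicates. They also treat tags as independent molecules, which sequenced tags are not, so they may be too narrow. The authors' fold enrichment and score (which grows as the MACS p-value gets smaller) were used only to place a peak within its own list.

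At the BMP ligand gene dpp, a single wide Bcd region in wild type was matched by a pair of separate, shorter regions in the mutant. The wild-type peak from 2453087 to 2458515 was 5429 bp long, the longest of the 29, and held 4032 tags (3908 to 4158), a density of 19.0. Its fold of 9.54 was above that of 94.7% of the 2827 wild-type arm peaks. The mutant peak from 2454187 to 2455469 held 185 tags (159 to 214) at a density of 14.3 and had a fold of 4.02. The mutant peak from 2456163 to 2457593 held 208 tags (181 to 238) at a density of 14.4 and had a fold of 4.83. Both mutant peaks lay wholly inside the wild-type one, covered 49.99% of it and were 693 bp apart. The wild-type summit lay in the right-hand mutant peak, 121 bp from its summit, and 1936 bp from the summit of the left-hand one. The density in the mutant was 0.76 times that of the whole wild-type peak in both, with counting intervals of 0.65 to 0.88 for the left-hand and 0.66 to 0.88 for the right-hand peak.

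The other wild-type peak at dpp, from 2449342 to 2451827, had no mutant partner. It held 1080 tags (1017 to 1146) at a density of 11.1, and its fold of 5.33 equalled the median of all wild-type arm peaks. The nearest mutant peak was 2.36 kb away. With an MACS false discovery rate (FDR) of 12.3%, it was among the less certain calls of the list.

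At sog, which encodes the BMP antagonist, 3 of the 4 wild-type peaks had no mutant partner. The exception was the peak from 15517856 to 15519614, with 1132 tags (1067 to 1200), a density of 16.4 and a fold of 11.96, rank 14 among the 2827 wild-type arm peaks. Its mutant partner from 15518309 to 15519472 held 167 tags (143 to 194) at a density of 14.3 and was the only mutant peak in the window. Their summits were 2 bp apart, the shortest distance of the 12 pairs. The mutant fold of 5.82 was above that of 86.7% of the 1870 mutant arm peaks.

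The strongest unshared Bcd region of the 5 loci was also at sog. The wild-type peak from 15540152 to 15541987 held 1325 tags (1255 to 1398) at a density of 18.43, the third highest of the 16 wild-type peaks, and had a fold of 9.46 and a score of 1159. The nearest mutant peak was 20.7 kb away. Taken to the mutant depth by the ratio of ChIP tags, its 1325 tags correspond to 340 tags, while the 13 mutant peaks of the 5 loci held 110 to 552. Among the 162 wild-type arm peaks with at least this score, 37 lacked a mutant peak, or 22.8%. The remaining unshared peaks at sog were weaker. The peak from 15501727 to 15503072 held 605 tags and had a fold of 6.52. The peak from 15519889 to 15521010 held 427 tags, the fewest of the 16, and had a fold of 5.61 and an FDR of 13.2%. It lay 274 bp from the end of the shared wild-type peak and 0.416 kb from the mutant one.

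At brk, the gene of the repressor of Dpp targets, every wild-type peak had 1 mutant partner and the ratios of lengths were the nearest to 1 of the 5 loci. The peak from 7190395 to 7191956 had the highest fold of the 29, 12.13, rank 11 among wild-type arm peaks. It held 1222 tags (1154 to 1292) at a density of 19.98. Its mutant partner from 7190582 to 7191838 held 230 tags (201 to 262) at a density of 18.2, with a summit 38 bp away. The mutant fold of 7.70 was above that of 95.8% of mutant arm peaks, the highest place of the 13. The ratio of the densities, 0.91 (0.79 to 1.05), was within counting error of 1 and above that of 17.1% of arm pairs.

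The other 3 pairs at brk had the higher density in the mutant when scaled by ChIP tags. They had the lower one when scaled by control tags or by the smaller of ChIP and control tags. The latter scalings multiply all pairs by 1 factor, 0.339 and 0.574, and leave the mutant higher in 0% and 0.717% of arm pairs. Scaling by ChIP tags also applies 1 factor to all pairs, so the direction at brk depends on the scaling chosen. Which scaling is the right one was not tested. In wild type the peak from 7193375 to 7195507 held 964 tags at a density of 11.5 and its partner from 7193442 to 7194887 held 218 tags at a density of 15.0, a ratio of 1.30 (1.12 to 1.51). Further right, the wild-type peak from 7199714 to 7202564 held 1352 tags at a density of 12.1 and its partner from 7199746 to 7202378 held 397 tags at a density of 15.0, a ratio of 1.24 (1.10 to 1.38). This pair was the closest in length of the 12, with 2851 and 2633 bp, and its summits were 28 bp apart. The last wild-type peak, from 7213286 to 7216673, which ran past the window's right edge, held 2146 tags at a density of 16.2. Its partner from 7213889 to 7216621 held 552 tags at a density of 20.1, the highest of the 13 mutant peaks, a ratio of 1.24 (1.13 to 1.36). A density above that of wild type was common on the arms, where it was found in 72.5% of 1394 overlapping pairs, with a median ratio of 1.13.

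The only mutant peak without a wild-type partner lay at the left edge of the brk window, from 7179778 to 7180791. It held 110 tags (90 to 133), the fewest of the 13, at a density of 10.8, with a fold of 4.15, a score of 62.3 and an FDR of 12.8%. The nearest wild-type peak was 9.60 kb away. Among the 20% of mutant arm peaks with the lowest scores, to which it belonged, 50.8% overlapped a wild-type peak.

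At sna, the gene of the mesodermal repressor, the strongest wild-type region again stood opposite a pair of mutant peaks. The wild-type peak from 15477004 to 15481379 was 4376 bp long and held 2921 tags (2816 to 3029) at a density of 17.0, with a fold of 9.32. The mutant peak from 15477441 to 15479039 held 274 tags (243 to 308) at a density of 17.0 and the mutant peak from 15479201 to 15480456 held 150 tags (127 to 176) at a density of 11.9. The pair was 161 bp apart and covered 65.2% of the wild-type peak. The wild-type summit lay in the right-hand mutant peak, 280 bp from its summit, yet the left-hand one was the stronger in the mutant, with a fold of 4.47 against 3.02. The density ratio to the whole wild-type peak was 1.00 (0.88 to 1.13) for the left-hand peak and 0.70 (0.59 to 0.82) for the right-hand one.

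A second shared region at sna had its summits 400 bp apart. The wild-type peak from 15485107 to 15487428 held 1311 tags (1241 to 1384) at a density of 14.4 and had a fold of 7.23. Its partner from 15485684 to 15486774 held 124 tags (103 to 148) at a density of 11.3, a ratio of 0.78 (0.65 to 0.94), and its fold of 3.02 was above that of only 14.9% of mutant arm peaks. The unshared wild-type peaks inside the sna window were weak. The one from 15470273 to 15472210 held 769 tags and had the lowest fold of the 16, 3.92, and the one from 15481661 to 15483357 held 625 tags with a fold of 5.16. Their FDR was 13.2% and 12.8%. The latter peak began 281 bp after the strongest one.

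At rho, which encodes the protease that releases receptor ligands, the wild-type peak from 1461301 to 1464847 held 2093 tags (2004 to 2185) at a density of 15.1 and had a fold of 6.37. In the mutant the peak from 1461434 to 1462537 held 159 tags (135 to 186) at a density of 14.3, and the peak from 1463146 to 1464451 held 194 tags (168 to 223) at a density of 14.8. They were 608 bp apart and covered 67.9% of the wild-type peak. The wild-type summit was 98 bp from the left-hand mutant summit and 1699 bp from the right-hand one, and the fold was higher on the left, 4.88 against 3.17. Both densities were within counting error of that of the whole wild-type peak, with ratios of 0.95 (0.80 to 1.12) and 0.98 (0.84 to 1.14). The unshared wild-type peak from 1455833 to 1457224 held 620 tags (572 to 671) with a fold of 5.66, and the nearest mutant peak was 4.21 kb away.

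Over the 5 loci, 9 of the 16 regions bound in wild type had a mutant partner, or 56.25% (exact binomial 95% interval 29.9 to 80.2). On the chromosome arms 45.5% did, a share within that interval. A wild-type peak was met by 12 of the 13 mutant peaks, or 92.3% (64.0 to 99.8), against 74.4% on the arms, again within the interval. Asking for an overlap of 50% of each peak left 5 of 16 wild-type (31.25%) and 5 of 13 mutant peaks (38.5%) shared, and asking for summits within 200 bp left 7 of 16 (43.75%) and 7 of 13 (53.8%). With an FDR of at most 5% in both lists, 3 of 10 wild-type peaks (30%) and 3 of 3 mutant peaks were shared. The shares of all arm peaks under these stricter rules are not given here. Whether the changes are particular to the loci was therefore not tested. Without brk, 5 of 12 wild-type peaks were shared, or 41.7% (15.2 to 72.3), and all 8 mutant peaks were. On X, which carries brk and sog, 5 of the 8 wild-type peaks of the loci were shared, against 44.7% of all 472 wild-type X peaks.

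The shared wild-type peaks were those with higher scores, apart from the strong unshared peak at sog. The 9 shared peaks had scores of 333 to 2755, and 6 of the 7 unshared ones had scores of 83.8 to 210. The ranges did not overlap once the sog peak with a score of 1159 was left out. When the wild-type arm peaks were put in 5 bins of 20% by score, 8 of the 16 fell in the highest bin and 7 of these were shared, against 62% of the arm peaks of that bin. Bin 2 from the bottom held 4 peaks with 0 shared, against 37.5%. Bin 3 held 1 peak each of rho and sog, neither of them shared, against 48.7%. Bin 4 held 2 peaks of brk, both shared, against 50.8%. The score follows depth, and the 6 weaker unshared peaks correspond to 110 to 277 tags at the mutant depth. The mutant peaks that were called at the 5 loci held 110 to 552 tags, so these values lie within that range. Whether they would have been called in a mutant library as deep as the wild-type one was not tested.

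**Figure D2:**
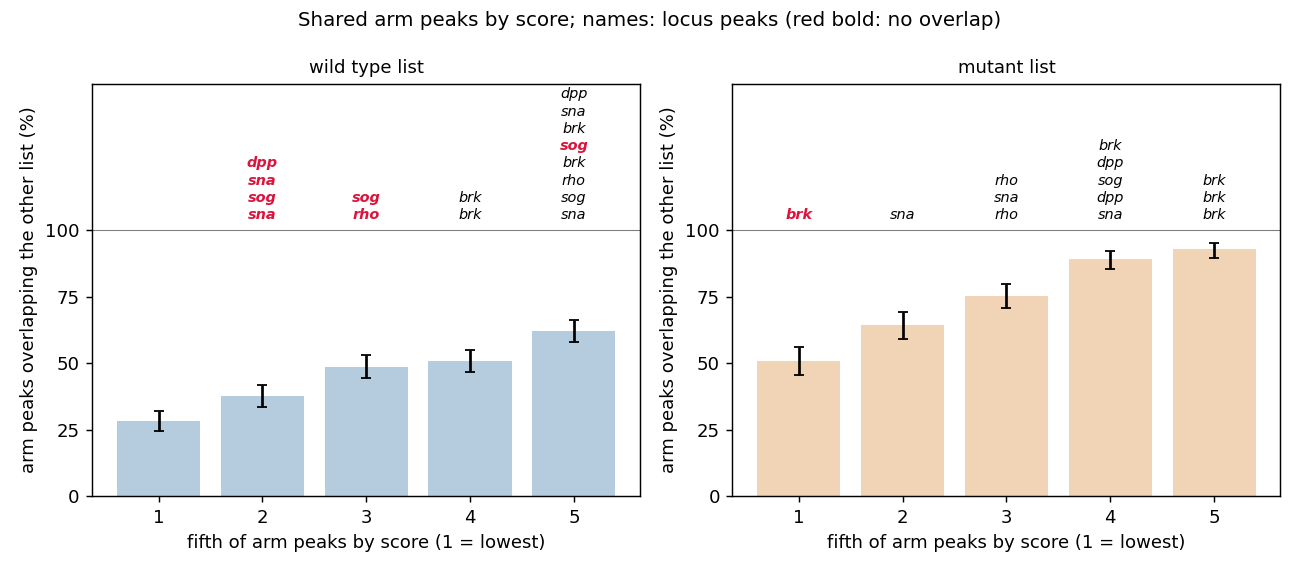
Share of chromosome arm peaks with a partner in the other list, in 5 bins of 20% by score within each list, with exact 95% binomial intervals as error bars. The names above the bars place the locus peaks in their bin, in red bold where they had no partner. In wild type, red names fill bins 2 and 3, and sog is the only red name among the 8 in bin 5, the highest.

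By the authors' fold, most locus peaks were above the arm median of their list, but the counts are small, above all in the mutant. The windows were drawn with results of these data known, so these places are a description only. In wild type 13 of 16 were above the arm median of 5.33, against 50% by definition, and 9 had at least 80% of arm peaks below them, against 19.9%. The wild-type median was 7.22, and every locus had a peak of at least 6.37. In the mutant 9 of 13 were above the arm median of 3.97, against 49.9%, and 4 had at least 80% of arm peaks below them, against 19.8%. These 4 were the sog peak and 3 of the 5 brk peaks. The lowest places in the mutant were held by members of sna and rho, with folds of 3.02, 3.02 and 3.17. By score, 8 of 16 wild-type peaks but only 3 of 13 mutant peaks were in the highest 20% of their arm peaks. An FDR of at most 5% was reached by 10 wild-type peaks, of which at least 1 was in each window, and by 3 mutant peaks, all at brk. On the arms 35.3% of wild-type and 13.2% of mutant peaks reached it.

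**Figure D3:**
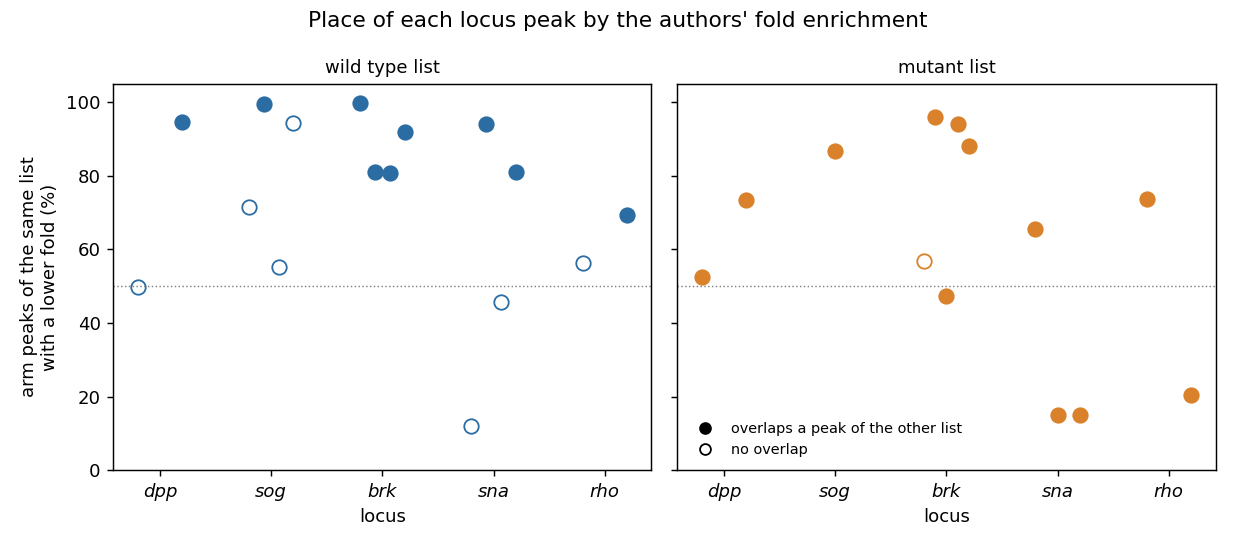
Percent of chromosome arm peaks of the same list with a lower fold enrichment, for each peak of the 5 loci in the wild-type list (left) and the mutant list (right). Filled points overlapped a peak of the other list, open points did not, and the dotted line marks 50%. In wild type the 4 peaks of brk, 2 of sog, 2 of sna and 1 of dpp stand above 80%, while in the mutant only points of brk and sog do.

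The opposition of 1 wild-type peak to 2 mutant peaks was found at 3 of the 5 loci. Of the 16 wild-type peaks, 3 overlapped 2 mutant peaks, against 3.36% of wild-type arm peaks that overlapped 2 or more. Such peaks were long. Among shared wild-type arm peaks of 3 kb or longer, a limit chosen after the values were seen, the share was 19.4%, and at the loci it was 3 of 4, the peaks of dpp, sna and rho. The fourth was the brk peak that ran past the window edge, with 1 partner. In wild type itself, 4 of the 16 peaks had a wild-type neighbour within 300 bp, a pair at sna and a pair at sog, against 9.02% on the arms. Whether the lower mutant depth alone parts a wide region into 2 calls was not tested.

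In all 12 overlapping pairs the mutant peak was shorter and lay wholly inside the wild-type one. On the arms the mutant peak was shorter in 95.8% of 1394 pairs and wholly inside in 86% of them, so this is near the common pattern. The median ratio of mutant to wild-type length was 0.42 at the loci and 0.69 on the arms, but 6 of the 12 pairs belong to the 3 wild-type peaks with 2 partners. For pairs of 1 peak with 1 peak it was 0.74 at the loci (6 pairs) and 0.76 on the arms (1187 pairs). By pair it was 0.24 to 0.47 at dpp, sna and rho, 0.66 at sog and 0.68 to 0.92 at brk. The wild-type summit was inside the mutant peak in 9 of the 12 pairs, against 86.9% on the arms. A summit can lie in only 1 of 2 separate partners, so the 3 wild-type peaks with 2 partners each gave 1 pair without it. The count could therefore not exceed 9, and every shared wild-type peak had its summit inside a mutant peak. Summits were within 200 bp in 7 of the 12 pairs, against 73.5% on the arms, and the 5 exceptions were all at dpp, sna and rho. In 3 of these 5 the distant summit belonged to the mutant peak that did not hold the wild-type summit.

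Scaled by ChIP tags, the density was lower in the mutant in 9 of the 12 pairs and higher in 3, all 3 at brk. Scaled by control tags, or by the smaller of ChIP and control tags, it was lower in all 12. The ratios were then at most 0.44 and 0.75, and the median of the arm pairs moved likewise, to 0.38 and 0.65. These scalings multiply every pair by 1 factor, 0.339 and 0.574. The mutant density was then higher in 0% and 0.717% of arm pairs, against 72.5% by ChIP tags. Neither scaling removes the whole difference in ChIP depth, so they are not evidence of a lower density at the loci. The higher mutant density at brk likewise holds only under the scaling by ChIP tags. The median of the locus pairs, 0.93 by ChIP tags, was 1.24 for the 5 pairs that overlapped by 50% of each peak. The following values are by ChIP tags. The counting interval lay below 1 for 4 pairs, both of dpp and 2 of sna, above 1 for 3 and held 1 for 5. The median of the arm pairs was 1.13, a value inside the interval of each of the 3 pairs above 1. Since the mutant peak was the shorter one in every pair, the ratio compares different stretches of DNA at all 5 loci, the more so at dpp, sna and rho, where the lengths differed most. The brk pairs with a higher mutant density had ratios above those of 70.3% to 78.3% of arm pairs, while the other 9 were above those of 2.94% to 27.4%.

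**Figure D4:**
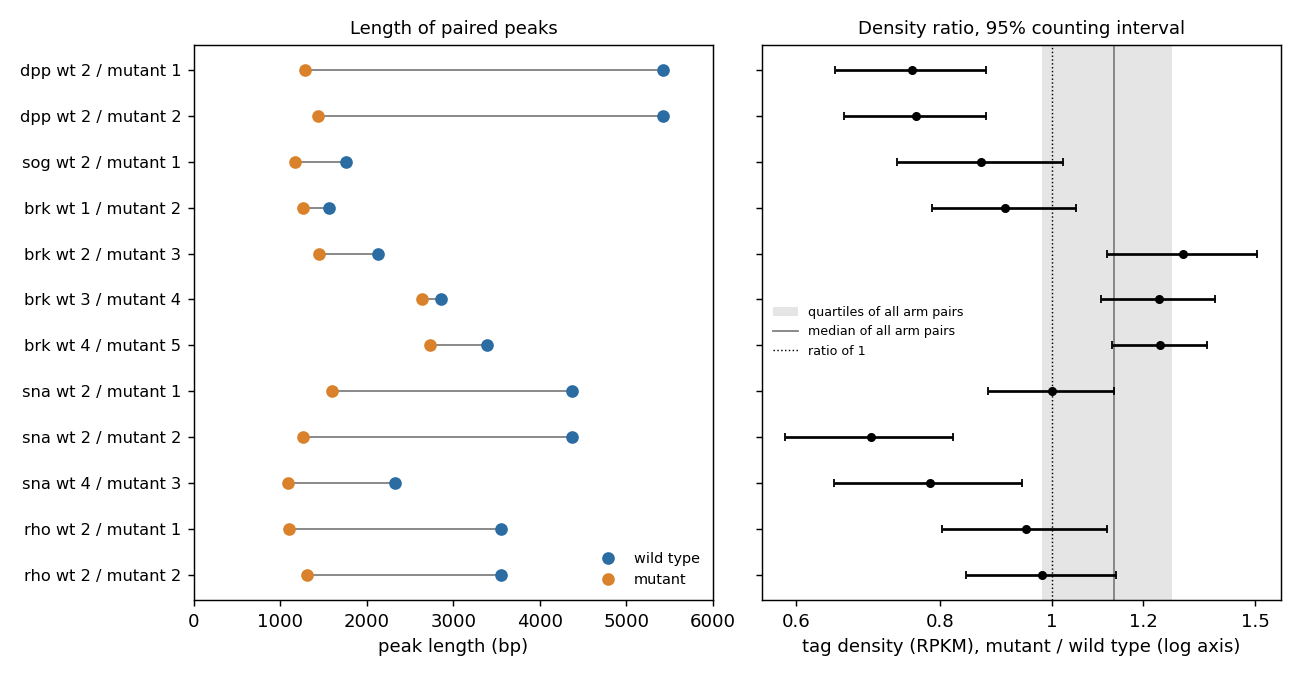
The 12 overlapping pairs of wild-type and mutant peaks, numbered from left to right within each window and list. Left, length of both peaks in bp; right, ratio of mutant to wild-type tag density (RPKM) on a log axis, with 95% counting intervals, the median (1.13) and quartiles of all arm pairs in grey. By ratio the brk pairs are the closest in length, and 3 of them are the only pairs to the right of 1 under this scaling.

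Summed over a window, brk differed in size from the other 4 loci. Its mutant peaks covered 0.91 times the length of its wild-type peaks, 9083 against 9934 bp, and took 1.03 times the share of ChIP tags (0.97 to 1.09). The mutant sums at brk include the peak without a wild-type partner, of 1014 bp and 110 tags. Peaks that cross a window edge were summed whole. The called length in the mutant was 0.49 times that of wild type at rho, 0.38 at sna, 0.34 at dpp and 0.19 at sog, against 0.41 over all arm peaks. The share of ChIP tags in peaks was 0.51, 0.38, 0.30 and 0.19 times that of wild type in the same order, against 0.48 on the arms. Per called kb the ratios spanned a narrower range, from 0.87 (0.79 to 0.97) at dpp to 1.13 (1.07 to 1.19) at brk, against 1.19 on the arms. The counting intervals of dpp and brk did not overlap. The sums follow the called length and have no replicate check.

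Beyond the window edges, the nearest peaks were listed as a description of the limits. To the left of sna, 7.54 kb from the window, lay a wild-type peak without a mutant partner, from 15445828 to 15452457. It was 6630 bp long, with 3475 tags and a fold of 10.58, so it was longer than any of the 29 and had a higher fold than any unshared peak inside the windows. The sna window ended 0.902 kb before a wild-type peak with a fold of 6.99, from 15490902 to 15492921. Its mutant partner had a fold of 8.69, above that of any mutant peak inside the 5 windows. At rho, wild-type peaks without a partner lay 0.570 kb to the left and 3.64 kb to the right, with folds of 4.44 and 5.24. At sog, a wild-type peak with a fold of 5.51 and no partner lay 3.61 kb to the right. At dpp and brk no peak of either list lay within 5 kb of the window. The mutant-only peak on the left of brk and both peaks of its last pair on the right lay across a window edge and counted as members by their overlap.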

How the data were processed

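The samples, 8 in 4 groups of 2, were grouped by their titles. Per the submitters' processing notes the authors used Bowtie2, the build dm3 and MACS 1.4.2. Per the file headers, each peak list came from 1 ChIP and 1 control file, with a tag size of 50 bp, a p cutoff of 1e-05, at most 1 tag per position and the larger dataset scaled towards the smaller. Filtered control tags numbered 22487837 (wild type) and 17035242 (mutant). The joining of replicates is not described in the sources. The deposited values are, per the file headers, a count of ChIP tags per peak, a score from the −log10 of the p-value, a ratio called fold enrichment and an FDR in percent, with start, end, length and summit offset in bp.

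From these, overlaps, densities, places within a list, exact Poisson and binomial 95% intervals and conditional exact intervals of density ratios were computed with Python 3.11.15, numpy 2.4.6, pandas 2.3.3 and scipy 1.17.1. The arms are 2L, 2R, 3L, 3R, 4 and X. Every peak in the windows was described. On simulated data, 500 of 500 placed overlaps were recovered and 0 of 500 adjoining intervals were paired. The members, windows and comparisons were chosen with earlier results of these data known. Alternatives were other overlap rules, stricter thresholds, other window edges and other scalings. Sequences of peaks and promoters were not analysed here.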

Additional observations from a re-analysis of the deposited data

How the results depend on the processing

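Scores at the mutant depth and leaving out each locus were added after seeing the data; the others were planned unless said otherwise. The share of wild-type peaks overlapping a mutant peak stayed between 30% and 66.7% except for 81.8% (9 of 11) where the wild-type score had to keep 50 at the mutant depth. The share of mutant peaks became 100% with a score of at least 100, an FDR of at most 5%, windows narrowed by 5 kb or without the brk locus, 53.8% with summits within 200 bp and 38.5% where both peaks had to overlap by 50%. The FDR limit left 10 wild-type and 3 mutant peaks. The shares of all arm peaks under these altered settings are not given here, so whether the shifts are particular to the loci was not tested. The median length ratio of 0.42 became 0.80 under that reciprocal rule (5 pairs, 4 of them at brk), 0.68 under the summit rule and 0.74 for pairs of 1 with 1, the last added after seeing the data. The median density ratio of 0.93 turned to 1.24 under the reciprocal rule and became 0.32 scaled by control tags and 0.53 scaled by the smaller of ChIP and control tags, which multiply every pair by 1 factor. The median summit distance of 136.5 bp became 36 bp for pairs of 1 with 1. The summed tag ratio of 0.51 per window length turned to 1.04 per called length; for the shifts other than the scalings the cause was not tested. No paired analysis was possible because replicates are pooled in 1 list for each genotype, and for the same reason none was left out. The planned promoter and protein sequence results were not run. The mutant depth limits what can be called absent there.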
